A study of Nannospalax ehrenbergi and Mus musculus with 25 samples.

Results

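The 39 Hox genes of 4 clusters (HoxA, HoxB, HoxC and HoxD) were followed in neck tissue of the blind mole rat Spalax and of the mouse after a single injection of the carcinogen 3-methylcholanthrene (3MCA). Members were chosen by gene name alone, as every gene named Hox with a cluster letter and a number. All 39 were found among the 27988 genes of the Spalax table and among the 47593 genes of the mouse table. In Spalax tumors Hoxa4 and Hoxa7 fell against muscle of the uninjected side, and 10 members rose. The higher ones were Hoxb5, Hoxb6 and Hoxb7, 5 HoxC genes, among them Hoxc8, Hoxc9 and Hoxc10, and the posterior Hoxd10 and Hoxd13. Of these, Hoxc9, Hoxc10, Hoxd10 and Hoxd13 passed the filter on low signal only through the tumors, where they are high. The 12 called of 29 tested members stand beside 49.4% of all genes tested, so calls were no more frequent among the members. In mouse fibrosarcomas the members called higher were HoxB genes, Hoxb3, Hoxb6, Hoxb7 and Hoxb8, and 6 of 22 tested members were called beside 45.1% of all genes. A test of whether the difference between sides itself differed between species called 0 of 20 members.

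Gene expression was measured by RNA sequencing of 25 libraries, 16 from Spalax and 9 from mice. Spalax control was neck muscle of 4 untreated females (animals 1042, 1075, 2095 and 6038), and Spalax tolerant was muscle of the injected side of 4 animals that were injected and had no tumor, sampled after 18 months (2251 and 2261) or 30 months (2218 and 2375), 3 of them male and 1 female. The remaining 4 Spalax had a tumor, and each gave a library of the injected side (IS), taken from the part of the removed tumor nearest the body, and a library of the uninjected, opposite side of the neck (UIS). Granuloma, a benign mass, was present in the females 600 and 976 after 14 and 16 months, and fibrosarcoma, a malignant tumor of connective tissue, in the male 2230 and the female 2240 after 30 and 18 months. Spalax received 1 mg of 3MCA in 500 µl under the skin of the left flank of the neck, and mice 200 µg in 200 µl. The mice were C57BL/6 males of 3 to 4 months. They comprised 3 untreated mice control (M1, M2 and M5) and 3 with fibrosarcoma, 1019, 1023 and 512, operated after 14, 12 and 11 weeks, each with an IS and a UIS library. The Spalax were caught in the wild, with ages known only as estimates. Each animal gave 1 library per side, so n counts animals, and every sample was whole tissue, in which fewer cells of a type and less RNA per cell cannot be told apart.

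Hox genes encode transcription factors with a homeodomain, a DNA-binding fold. In the embryo they are switched on along the body axis in the order in which they lie in their clusters, low numbers toward the head and high numbers toward the tail, and together they give cells a record of their position. Adult connective tissue cells keep much of this record, so that fibroblasts from different body sites carry different sets of Hox transcripts. Genes with the same number in different clusters are paralogs and have related proteins. Members are ordered here by cluster and by number, with numbers 1 to 4 named anterior, 5 to 8 middle and 9 to 13 posterior.

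The homeobox stretches of the 7 members on which the comparisons turn most are shown to let the reader see how alike the members are where they bind DNA. Each is 63 bases of the mouse coding exon, in GRCm38 with the GENCODE annotation, written on the coding strand, and capitals mark the 18 bases that encode the conserved core of the helix that reads DNA.
Hoxa4, chr6:52190495-52190557, minus strand: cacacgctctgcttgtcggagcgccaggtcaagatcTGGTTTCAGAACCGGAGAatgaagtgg
Hoxb8, chr11:96284279-96284341, plus strand: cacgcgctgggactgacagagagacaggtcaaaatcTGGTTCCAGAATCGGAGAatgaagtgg
Hoxc8, chr15:102992676-102992738, plus strand: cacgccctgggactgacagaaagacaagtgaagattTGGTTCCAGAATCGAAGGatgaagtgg
Hoxc9, chr15:102984035-102984097, plus strand: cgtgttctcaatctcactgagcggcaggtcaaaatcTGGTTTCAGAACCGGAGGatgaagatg
Hoxc10, chr15:102970953-102971015, plus strand: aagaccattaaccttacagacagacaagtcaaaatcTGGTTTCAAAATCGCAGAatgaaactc
Hoxd10, chr2:74694246-74694308, plus strand: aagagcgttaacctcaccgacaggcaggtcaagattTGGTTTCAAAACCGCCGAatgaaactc
Hoxd13, chr2:74670035-74670097, plus strand: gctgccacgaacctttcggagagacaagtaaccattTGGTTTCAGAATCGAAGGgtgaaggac
Over the 180 bases of the homeobox, the 42 pairs of members with the same number were 67.2 to 93.9% identical (median 80.6%), and the 699 pairs with different numbers were 46.1 to 88.9% identical (median 60.6%). An identical run of 101 bases, the length of a read, was shared by 2 of 741 pairs, Hoxc5 with Hoxc10 and Hoxd3 with Hoxd4, so reads could be split between these pairs. Exons of Gm28230 and Hoxd4 on the same strand cover 62.3% of the exon bases of Hoxd3, and those of Gm28230 and Hoxd3 cover 52.3% of Hoxd4. The values of Hoxd3 and Hoxd4 are uncertain for that reason. Opposite-strand genes cover 52.9% of the exon bases of Hoxb3 and 16.0% of those of Hoxa4, and the strand setting of the counting is not given in the sources used here. In the mouse genome the HoxA genes lie on the minus strand of chr6:52155590-52260880, and the others on the plus strand of chr11:96194316-96368256 (HoxB), chr15:102921103-103036852 (HoxC) and chr2:74668310-74765142 (HoxD).

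The values are read counts divided by a size factor per library, named signal here. The reads behind them numbered 17025447 to 23386729 per Spalax library and 22143060 to 31179183 per mouse library, and 1 read was worth 0.60 to 1.42 units of signal in Spalax and 0.517 to 1.44 in mouse. A gene at 0 had no read, but its expected count may have been up to 3 reads. That is a signal of 1.80 to 4.26 in Spalax and 1.55 to 4.32 in mouse, which covers counting error only. The labelled tissue was checked with muscle fiber genes, whose summed signal was 767529 to 2691020 in the Spalax control, tolerant and UIS libraries and 149 to 2775 in the tumors. Fibroblast genes summed to 8462 to 224137 in the former and 124904 to 2107280 in the tumors. In mice the muscle fiber sum was 1002170 to 4135640 outside the tumors and 116, 18898 and 51248 in tumors 1019, 1023 and 512, and the fibroblast sum was 5239 to 62608 against 165893 to 197493. Brown fat genes summed to 35655 to 59511 in mouse controls, 111 to 21034 in mouse UIS and 945 to 1946 in mouse tumors. The part of these shifts in the Hox differences was not tested. Libraries of controls and tolerant animals carry a double index and those of tumor-bearing animals a single one, so index and group cannot be told apart where UIS is compared with control.

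Some libraries stood apart in their Hox or marker genes, and results that rest on control 6038 or animal 512 are given with and without them. Spalax control 6038 held Hoxa9 at 499, Hoxa10 at 238, Hoxa11 at 50.7 and Hoxa13 at 20.9, against 3.60 to 12.5 for Hoxa9 and 0 for the other 3 genes in the other controls. Mouse UIS 512 held Hoxa13 at 318, Hoxc10 at 1458 and Hoxc11 at 225, where the other UIS mice and the controls held 0 to 1.03. Its brown fat gene Ucp1 was at 0, against 2217 to 45978 in those 5 libraries, and its muscle fiber sum was the highest of the mouse libraries. Mouse IS 512 held the highest Hoxa2, Hoxa3 and Hoxa5 among the mouse libraries. Its satellite cell genes, which mark muscle stem cells, summed to 5474, against 4.13 and 8.30 in tumors 1019 and 1023, with 3 of 4 above 0 (Pax7 at 1755, Myod1 at 2831, Myf5 at 888, and Pax3 at 0). Its fibroblast gene Pdgfra was at 957, against 10245 and 15553, and the part of these markers in the Hox values of 512 was not tested. Tolerant 2251 had the lowest muscle fiber sum and the highest fibroblast sum of the tolerant animals. It held the skin genes Krt5 and Krt14 at 343 and 265, against 0 and 0 to 88.8 in the other Spalax libraries. Spalax UIS 2230 held the brown fat genes Ucp1 and Cidea at 12999.6 and 5053, against 0 to 6.57 and 0 to 91.1 in the others. Its Hoxc6 and Hoxc8, at 85.3 and 38.4, were the highest of the Spalax UIS libraries. Mouse UIS 1019 held the cell cycle genes Mki67, Top2a, Ccnb1 and Cdk1 at a sum of 1247, against 25.9 to 92.2 in the other UIS mice and the controls. Its Hoxc6, Hoxc8 and Hoxc9 were at 106, 42.3 and 26.6, where mouse controls held 2.01 to 10.6, 0, and 0 to 0.815. In UIS 512 Hoxc6 was at 102. The part of these markers in the Hox values was not tested.

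In untreated neck muscle the members with the most signal were HoxD and HoxA genes. Levels can be set against each other per kilobase of exon only in mouse, where Hoxd8, a gene of the trunk, led with 422 units of signal per kb (mean of 3 controls, 317 to 539). Hoxa4, of the paralog group that patterns neck vertebrae, followed at 172 (162 to 191), with Hoxa5, which marks the passage from neck to chest, at 171 (142 to 196), so the order of these neighbors lies within their spread. Hoxd9 stood at 132 (96.9 to 170), overlapping Hoxa4 and Hoxa5, and Hoxb4 at 58.9 (55.9 to 64.6), below them. These 3 mouse controls also held the brown fat gene Ucp1 at 24005 to 45978, and the part of brown fat in these levels was not tested. In Spalax controls the signal, not per length, was 262 to 797 for Hoxa4, 63.7 to 398 for Hoxd8, 73.7 to 408 for Hoxa5 and 37.8 to 159.7 for Hoxb2. A mean signal of 10 in at least 1 group was reached by 31 members in Spalax and 30 in mouse. Hoxd12 was at 0 in all Spalax libraries, and Hoxc12, Hoxc13, Hoxd11 and Hoxd12 were at 0 in all mouse libraries. Hoxb1, Hoxb13, Hoxc12, Hoxc13 and Hoxd12, 5 members, never passed a signal of 7.38 in either species, and 34 were measured above that.

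**Figure D1:**
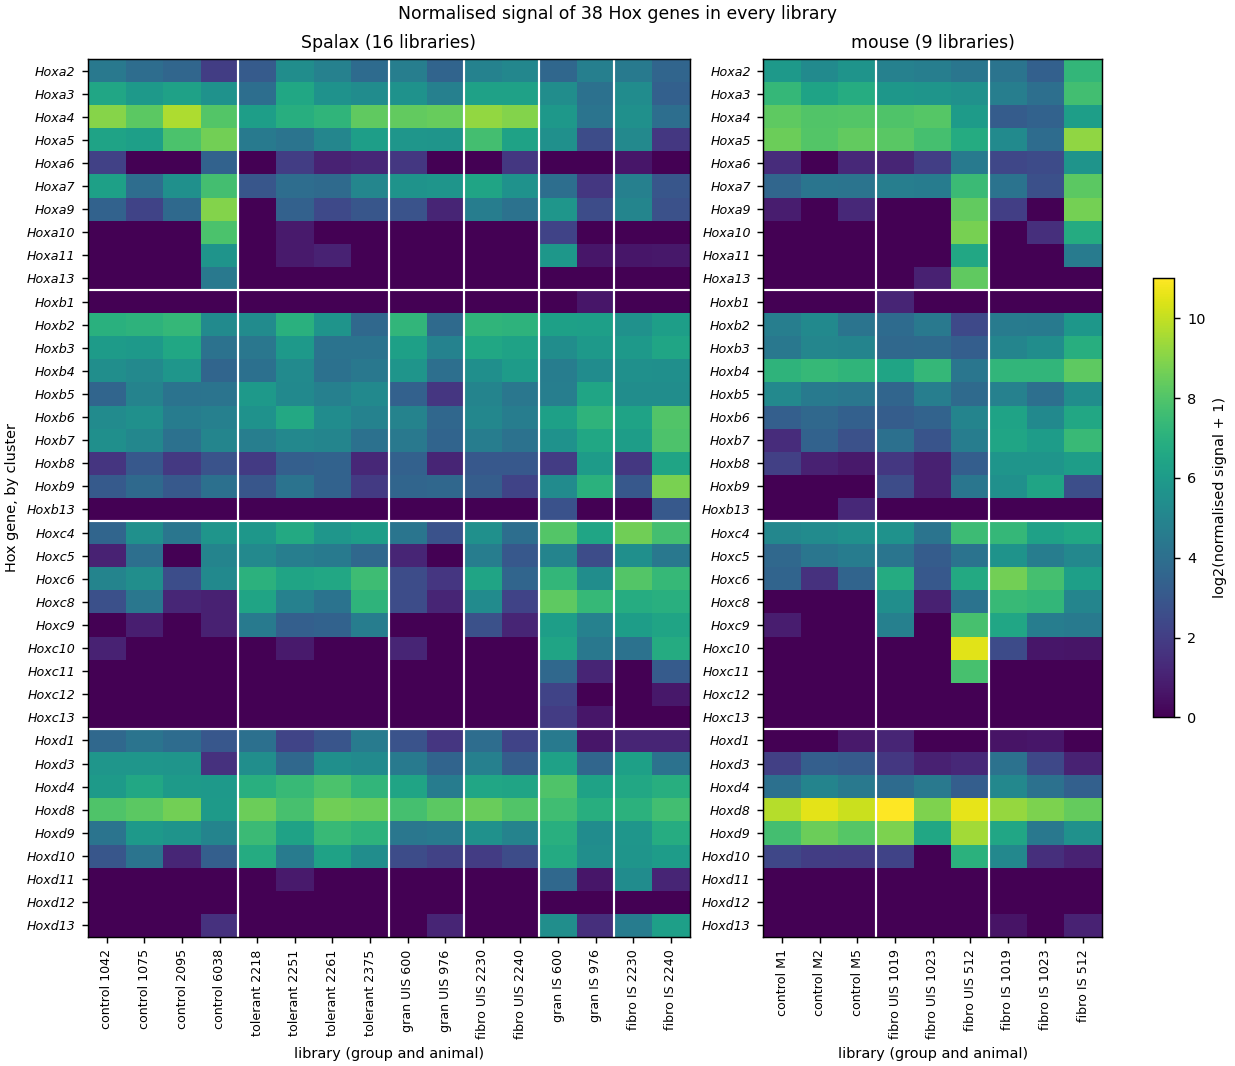
Signal of 38 Hox genes (rows, by cluster and number) in each of the 16 Spalax and 9 mouse libraries (columns, by group), colored by log2(signal + 1), with white lines between clusters and groups. Control and UIS muscle is bright at Hoxa4 and Hoxd8, tumors other than that of mouse 512 are bright at HoxC, and Spalax control 6038 and mouse UIS 512 hold posterior HoxA signal that their groups lack.

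The share of each cluster in the Hox reads of a library differed by tissue. HoxA took 31.3 to 79.4% of Hox reads in Spalax control, 40.8 to 51.2% in UIS, 8.3 to 26.8% in tolerant and 2.4 to 12.1% in IS libraries. HoxC took 1.2 to 8.2% in control, 1.0 to 9.2% in UIS, 12.5 to 24.4% in tolerant and 24.5 to 46.1% in IS libraries. For HoxC the tolerant animals, without a tumor, lay between the control and UIS libraries and the tumors without overlap, and for HoxA they lay below the control and UIS libraries, with 2218 at 8.3% inside the tumor range. Posterior members, numbers 9 to 13, took 3.4 to 4.1% of Hox reads in UIS and 15.2 to 34.3% in IS, with 9.6 to 20.9% in tolerant animals and 2.7 to 6.4% in 3 controls against 39.3% in control 6038. In mice HoxC took 2.0 to 3.1% in control, 2.3 and 6.6% in UIS of 1023 and 1019 and 34.9% in UIS 512. The order was turned around in animal 512, whose tumor gave 56.7% of its Hox reads to HoxA and 7.2% to HoxC, while tumors 1019 and 1023 gave 5.9 and 4.7% to HoxA and 38.0 and 32.4% to HoxC. Shares within a library add up to a whole, so they are descriptions and were not tested. The Hox genes together made up 40.4 to 94.9 CPM outside Spalax tumors and 105 to 195 CPM in them. On the scale of signal their sums overlapped, at 960 to 2207 outside the tumors and 1413 to 2637 in them.

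**Figure D2:**
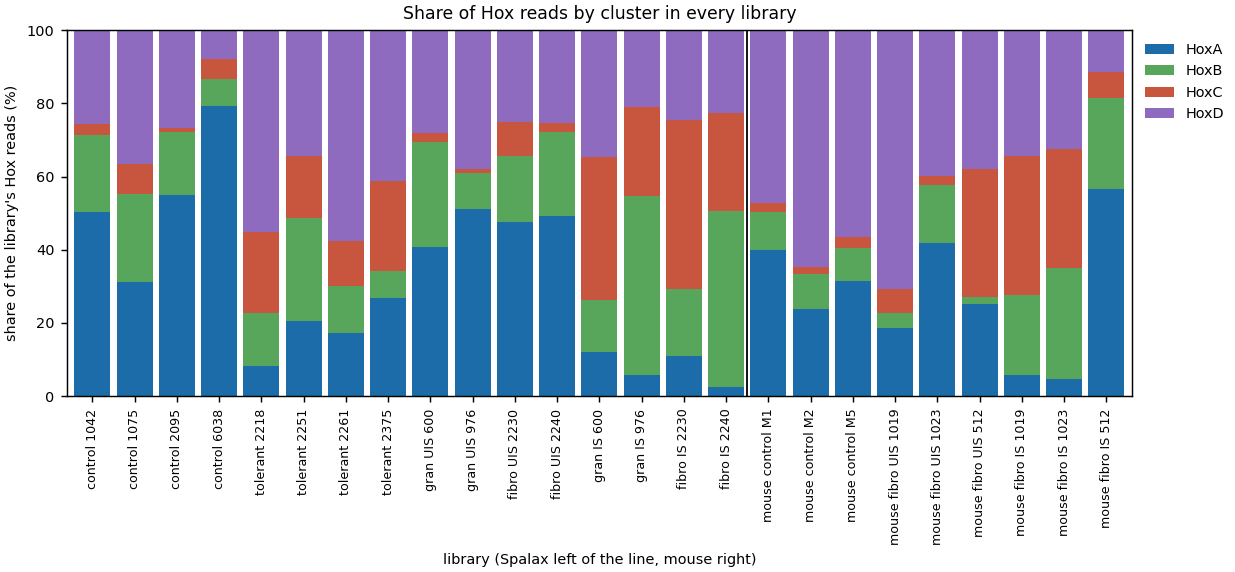
Percent of the Hox reads of each library that fell on HoxA, HoxB, HoxC and HoxD (stacked bars, 1 bar per library, Spalax then mouse). HoxC takes 1.0 to 9.2% of the Spalax control and UIS bars, 12.5 to 24.4% of the tolerant and 24.5 to 46.1% of the tumor bars, and mouse animal 512 departs from the other 2 tumor-bearing mice on both sides.

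Whether the tumor and the opposite side of the same animals differ in Hox signal was asked over all 4 tumor-bearing Spalax. Of the 39 members, 29 passed the filter on low signal, and 12 were called at an adjusted p of at most 0.05 (limma), where 49.4% of the 15584 genes tested were called. The calls were 10 higher and 2 lower, beside 24.9% of all genes higher and 24.5% lower. The median log2 fold change of the tested members was 1.39, against 0.05 over all genes tested. The IS and UIS values did not overlap for 14 tested members, 10 higher and 4 lower, where 48.6% of all genes did not overlap. Through the tumors alone, where they are high, 7 members passed the filter, among them Hoxb8, Hoxc9, Hoxc10, Hoxd10, Hoxd11 and Hoxd13, and 4 of these 7 were among the calls. By cluster, HoxA had 7 members tested with a median of -1.21, HoxB 8 with 1.63, HoxC 6 with 4.06 and HoxD 8 with 1.23. Scaling by total reads moved the median of all genes up by 0.76 and gave 15 higher and 1 lower calls, and the 12 calls kept their direction. In the values that follow, tumor-bearing Spalax are listed as 600, 976, 2230 and 2240, controls as 1042, 1075, 2095 and 6038, and tolerant animals as 2218, 2251, 2261 and 2375.

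The HoxA genes called in Spalax tumors, Hoxa4 and Hoxa7, were both lower there. Hoxa4 was at 324, 345, 599 and 497 on the uninjected side and at 57.3, 17.5, 45.0 and 14.8 in the tumors. The sides did not overlap, and Hoxa4 fell in the tumors (log2 fold change -3.85, SE 0.51, limma adjusted p = 0.000967). Hoxa7, a gene of the trunk, was at 49.4, 51.8, 83.9 and 47.3 in UIS and 14.5, 2.42, 26.4 and 6.76 in IS. It fell without overlap (log2 fold change -2.48, SE 0.68, limma adjusted p = 0.0199), a call that was lost when counts were scaled by total reads (adjusted p = 0.0591) and without either library of animal 976 or UIS 2230 (limma adjusted p = 0.0505 to 0.0818). Hoxa5 was at 54.3, 53.0, 212 and 80.0 in UIS and 45.0, 4.83, 34.8 and 2.46 in IS. These values did not overlap either, but the difference missed the threshold (log2 fold change -2.65, SE 0.95, limma adjusted p = 0.052), and it passed with the animal as a block (limma adjusted p = 0.0298). Hoxa3, which is needed for thymus and parathyroid, was at 48.2, 27.1, 76.8 and 77.6 in UIS and 40.6, 16.3, 39.6 and 9.22 in IS, overlapping (log2 fold change -1.21, limma adjusted p = 0.131). Hoxa2, the selector of the second pharyngeal arch, overlapped too, at 25.3, 10.6, 28.4 and 32.7 against 11.6, 26.0, 21.6 and 11.1 (log2 fold change -0.43, which was 0.31 when scaled by total reads).

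The posterior HoxA genes did not share this pattern. Hoxa9, known from blood stem cells and leukemia, overlapped at 6.03, 1.18, 24.2 and 17.0 in UIS and 54.4, 4.83, 31.2 and 5.53 in IS. Hoxa10 and Hoxa11, which act in uterus and limb, were at 0 in all 4 UIS libraries and above 3 reads in no tumor but 600, at 3.63 and 55.2. Hoxa6 reached at most 9.95, in control 6038, and Hoxa13, a gene of hands and feet, was at 0 in every Spalax library but control 6038.

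Among the HoxB genes, Hoxb5, Hoxb6 and Hoxb7 rose in Spalax tumors. Hoxb6 was at 28.9, 11.8, 32.7 and 24.2 in UIS and 75.5, 142, 83.4 and 256 in IS, and Hoxb7, which drives growth factor genes in tumor cells, at 20.5, 10.6, 24.2 and 17.0 in UIS and 47.2, 93.7, 69.0 and 240.4 in IS. Neither overlapped, and both were highest in fibrosarcoma 2240 (Hoxb6, log2 fold change 2.38, SE 0.54, limma adjusted p = 0.00946, and Hoxb7, log2 fold change 2.35, SE 0.56, limma adjusted p = 0.0111). Hoxb5, of the shoulder level, overlapped between sides at 9.65, 2.36, 29.9 and 19.4 in UIS and 25.4, 87.0, 40.8 and 40.6 in IS. Its call (log2 fold change 1.87, SE 0.61, limma adjusted p = 0.0381) was lost with the animal as a block (limma adjusted p = 0.0825), with no filter on low signal (0.0627) and without any 1 library of animals 976, 2230 or 2240 (limma adjusted p = 0.0734 to 0.124). Hoxb8 and Hoxb9 split the animals. Hoxb9 was at 10.9, 11.8, 8.53 and 3.64 in UIS and 38.5, 129, 7.20 and 439 in IS, high in tumors 600, 976 and 2240 and not in 2230, with limma adjusted p = 0.0838. Hoxb8, known for its use in growing myeloid progenitors, was at 2.90, 64.0, 2.40 and 84.8 in IS, high in 976 and 2240 and within the UIS range of 1.18 to 9.65 in 600 and 2230. The anterior Hoxb2, Hoxb3 and Hoxb4 overlapped, with log2 fold changes of -0.30, -0.08 and -0.09 that turned positive (0.46, 0.68 and 0.67) when scaled by total reads.

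Of the 6 HoxC genes tested, 5 rose in Spalax tumors. Hoxc4 was at 18.1, 5.89, 45.5 and 14.5 in UIS and 263, 88.2, 386 and 208 in IS and did not overlap (log2 fold change 3.57, SE 0.62, limma adjusted p = 0.00298). Hoxc6, whose front boundary marks the start of the chest vertebrae, was at 4.82, 2.36, 85.3 and 10.9 in UIS and 153, 41.1, 265 and 162 in IS. UIS 2230 lay within the tumor range, so the sides overlapped, but the difference passed the test (log2 fold change 3.44, SE 0.76, limma adjusted p = 0.00819). Hoxc8, a chest-level gene, was at 4.82, 1.18, 38.4 and 3.64 in UIS and 309, 162, 112 and 122 in IS, without overlap (log2 fold change 4.55, SE 0.76, limma adjusted p = 0.00245). Hoxc9, which keeps Hox5 genes off in the chest spinal cord, was at 0, 0, 5.69 and 1.21 in UIS and 71.1, 27.8, 67.8 and 83.6 in IS. All 4 tumors stood above all UIS libraries, and Hoxc9 rose (log2 fold change 4.91, SE 0.60, limma adjusted p = 0.000694). It had passed the filter through the tumors alone, so its adjusted p is not ranked against those of other members. Hoxc10, of the paralog group that keeps ribs from the loin, was at 1.21, 0, 0 and 0 in UIS and 84.2, 19.9, 16.8 and 107 in IS. Its UIS libraries held 1 read between them, every tumor stood above them, and it rose (log2 fold change 5.14, SE 0.81, limma adjusted p = 0.00196), with a fold change whose size depends on the pseudocount of 1. Hoxc11 was at 0 in every other Spalax library and at 12.3, 1.21, 0 and 7.99 in the tumors, too low to pass the filter. Hoxc5, overlapping at 1.21, 0, 24.2 and 7.27 in UIS and 29.8, 4.83, 43.8 and 20.3 in IS, missed the threshold (limma adjusted p = 0.0522), which it passed with the animal as a block (0.0359).

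Of the 8 HoxD genes tested, Hoxd10 and Hoxd13 were called. Hoxd10, expressed in limbs and the lower spinal cord of the embryo, was at 4.82, 3.53, 2.84 and 4.85 in UIS and 106, 42.9, 52.8 and 67.6 in IS. The sides did not overlap and Hoxd10 rose (log2 fold change 3.71, SE 0.51, limma adjusted p = 0.00113). Hoxd13, a gene of digits and of the tail end, was at 0, 1.18, 0 and 0 in UIS and 42.1, 1.81, 23.4 and 71.9 in IS, with tumor 976 at 3 reads and the UIS libraries at 1 read between them. It rose (log2 fold change 4.15, SE 0.96, limma adjusted p = 0.0101), and the size of its fold change depends on the pseudocount too. Hoxd11, its neighbor, was at 12.3, 0.604, 39.6 and 1.23 in the tumors and 0 in all UIS libraries. Tumors 976 and 2240 held 1 and 2 reads of it, and it was not called (limma adjusted p = 0.0765). Hoxd9 was at 19.3, 21.2, 46.9 and 29.1 in UIS and 123, 39.9, 54.0 and 111 in IS, overlapping through UIS 2230 and tumor 976 (log2 fold change 1.39, limma adjusted p = 0.0576). Hoxd8 went the other way, at 216, 303, 363 and 259 in UIS and 194, 118, 134 and 205 in IS, without overlap. It missed the threshold (log2 fold change -0.82, limma adjusted p = 0.0697) and its log2 fold change was -0.05 when scaled by total reads. Hoxd1, Hoxd3 and Hoxd4 overlapped, with log2 fold changes of -0.80, 1.06 and 0.97, and were highest in tumor 600 among the tumors (21.8, 78.4 and 249).

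**Figure D3:**
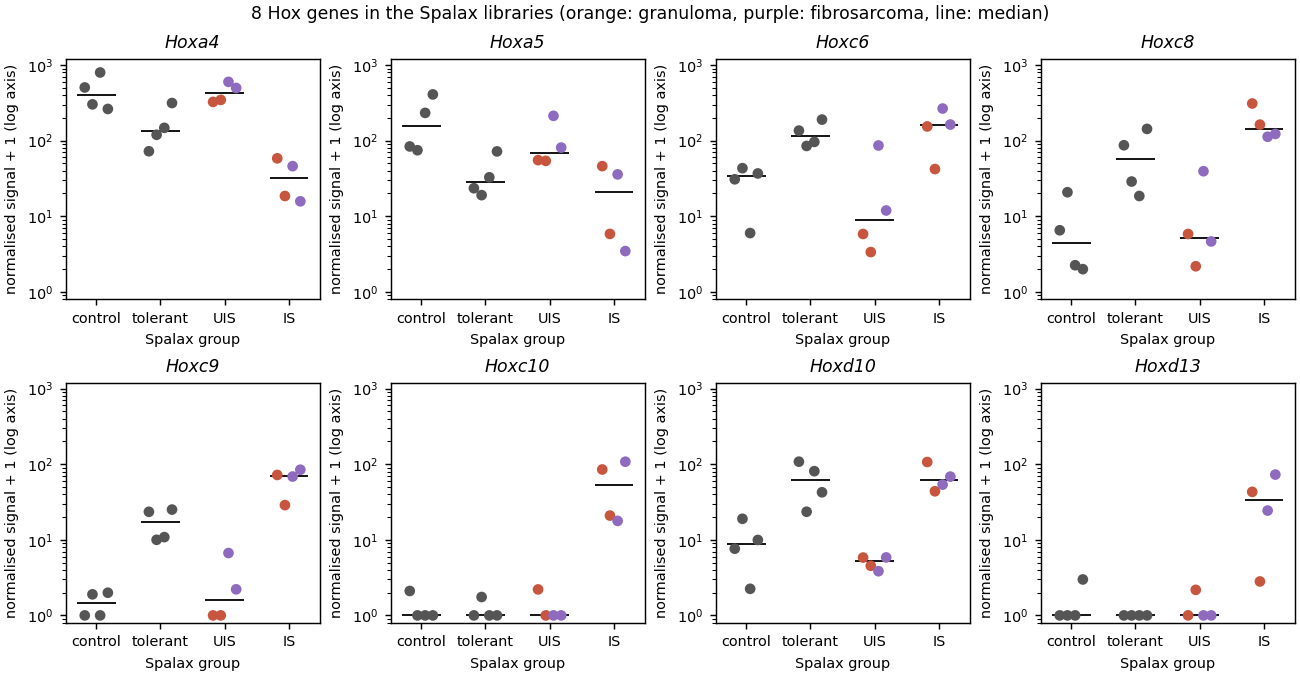
Signal (log axis, signal + 1) of Hoxa4, Hoxa5, Hoxc6, Hoxc8, Hoxc9, Hoxc10, Hoxd10 and Hoxd13 in the Spalax control, tolerant, UIS and IS libraries, 1 point per library, with a line at the group median, granuloma animals in orange and fibrosarcoma animals in purple. Hoxa4 falls from 324 to 599 in UIS to 14.8 to 57.3 in IS, Hoxc10 and Hoxd13 reach 10 in IS alone, and Hoxc6, Hoxc8, Hoxc9 and Hoxd10 of tolerant animals lie above most controls.

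Taken by tumor kind, with 2 animals each, granuloma had 7 of 22 tested members called against UIS (24.3% of all genes called, 11.7% higher and 12.6% lower), and Spalax fibrosarcoma 6 of 25 (36.3% called, 17.4% higher and 19% lower). These libraries are also those of the pooled comparison. In granuloma Hoxc4, Hoxc6, Hoxc8, Hoxc9, Hoxc10 and Hoxd10 rose, led by Hoxc8 (log2 fold change 5.98, SE 0.86, limma adjusted p = 0.0125), and Hoxa4 fell (log2 fold change -3.35, SE 0.74, limma adjusted p = 0.0309). In fibrosarcoma Hoxc4, Hoxc9, Hoxc10, Hoxd10 and Hoxd13 rose, led by Hoxd13 (log2 fold change 5.40, SE 0.73, limma adjusted p = 0.0098), and Hoxa4 fell (log2 fold change -4.34, SE 0.64, limma adjusted p = 0.0116). In granuloma 5 and in fibrosarcoma 4 of the higher calls had passed the filter only through the tumors. The sides did not overlap for 15 tested members in granuloma, beside 69.8% of all genes, and for 20 in fibrosarcoma, beside 74.3%. With 2 animals a group these calls are fragile, and leaving out 1 library brought them to between 0 and 2 in granuloma and between 0 and 11 in fibrosarcoma. In granuloma each of the 7 calls was lost without at least 3 of the 4 libraries, and in fibrosarcoma all 6 were lost without UIS 2230 or UIS 2240.

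The difference between tumor kinds was tested as an interaction. None of the 29 members was called by limma (0% of all genes), the lowest adjusted p among them was 0.946, and 0 had an unadjusted p under 0.05. The quasi-likelihood test of edgeR and DESeq2 each gave 1 member with an unadjusted p under 0.05 and called 0. Hoxd13, called in fibrosarcoma, did not pass the filter in granuloma, where animal 600 went from 0 to 42.1 and animal 976 from 1.18 to 1.81. With 2 animals a kind, these p-values do not show that the tumor kinds are alike.

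In mice the same question gave 22 members tested and 6 called, 4 higher and 2 lower, where 45.1% of 15220 genes were called, 22.8% higher and 22.3% lower. The calls thus made up a smaller share than over all genes. The median log2 fold change of the members was 1.13, against 0.11 over all genes, and became 0.43 with animal 512 left out, 0.77 without UIS 512 alone and 0.64 with no filter. Scaling by total reads moved the median of all genes up by 1.06 and gave 10 calls, 10 higher and 0 lower. IS and UIS did not overlap for 7 tested members, 6 higher and 1 lower, beside 60.2% of all genes. Mice are listed in the order 1019, 1023 and 512. Hoxb8 was at 2.42, 1.03 and 8.64 in UIS and 52.7, 52.8 and 68.4 in IS, and was the only call that had passed the filter through the tumors alone. The sides were far apart in each mouse, and Hoxb8 rose (log2 fold change 3.85, SE 0.66, limma adjusted p = 0.00592). Hoxb7 was at 15.7, 6.19 and 24.5 in UIS and 86.8, 67.6 and 174 in IS, and Hoxb6 at 8.46, 10.3 and 30.2 in UIS and 81.7, 36.2 and 96.3 in IS. Both rose without overlap (Hoxb7, log2 fold change 2.81, SE 0.64, limma adjusted p = 0.0144, and Hoxb6, log2 fold change 2.16, SE 0.66, limma adjusted p = 0.036), and the call of Hoxb6 was lost with no filter and without UIS 1019, IS 1019, UIS 1023 or IS 512 (limma adjusted p = 0.0585 to 0.107). Hoxb3, of the hindbrain and pharyngeal arches, was at 12.1, 12.4 and 8.64 in UIS and 31.5, 40.9 and 118 in IS, without overlap (log2 fold change 2.20, SE 0.60, limma adjusted p = 0.0259). Its call was lost without animal 512 (limma adjusted p = 0.0525) and without any of UIS 1019, UIS 1023, IS 1023 and UIS 512 alone (0.052 to 0.0654).

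The 2 lower calls in mice rested on single libraries. Hoxa4 was at 250.3, 271 and 64.8 in UIS and 8.27, 10.1 and 70.5 in IS, low in tumors 1019 and 1023 and level with its UIS in 512. The sides overlapped (log2 fold change -3.09, SE 0.97, limma adjusted p = 0.0396), and without animal 512 the log2 fold change was -4.69 (limma adjusted p = 0.00453). Its call was lost with the animal as a block (0.0797), when scaled by total reads (0.126), in edgeR (0.0717) and without any 1 library of 1019 or 1023 (limma adjusted p = 0.101 to 0.119). Hoxd9, of the paralog group that places the forelimb field, was at 449, 91.8 and 718 in UIS and 88.9, 20.2 and 46.8 in IS. It fell (log2 fold change -2.79, SE 0.90, limma adjusted p = 0.0429), but without animal 512 its limma adjusted p was 0.155, and the call was also lost without UIS 1019, IS 1019, IS 1023 or either library of 512, with no filter and when scaled by total reads (limma adjusted p = 0.0507 to 0.126).

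For other members the call changed with animal 512 left out. Hoxa5 was at 293, 216 and 107 in UIS and 37.7, 13.6 and 573 in IS, down in 1019 and 1023 and up in 512. It was not called over the 3 mice (limma adjusted p = 0.395) and was called over the other 2 (log2 fold change -3.40, SE 0.61, limma adjusted p = 0.0158). Hoxb9, at 4.84, 1.03 and 18.7 in UIS and 45.0, 84.8 and 5.26 in IS, behaved alike in the other direction, with limma adjusted p = 0.176 over 3 mice and 0.0155 (log2 fold change 4.19) without 512. Leaving the animal out was chosen after its values were seen. Hoxc6, Hoxc8 and Hoxc9 were not called in either setting. Hoxc6 was at 106, 7.22 and 102 in UIS and 405, 218 and 73.2 in IS, Hoxc8 at 42.3, 1.03 and 17.3 in UIS and 170.1, 156 and 31.6 in IS, and Hoxc9 at 26.6, 0 and 220.3 in UIS and 89.9, 24.3 and 22.1 in IS. In 1019 and 1023 each of the 3 was higher in the tumor, and in 512 Hoxc8 was higher and the other 2 lower. Hoxc4, at 47.2, 17.5 and 187 in UIS and 157, 77.1 and 93.2 in IS, showed the same split, and Hoxc5 was higher in all 3 tumors (48.6, 24.3 and 33.7 against 18.1, 8.25 and 17.3) with limma adjusted p = 0.0912.

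The posterior genes of animal 512 were the widest split between single libraries. Its uninjected side held Hoxa9 at 322.5, Hoxa10 at 430.5, Hoxa11 at 95.0 and Hoxd10 at 129.6, and its tumor held them at 411, 108, 23.2 and 1.05. Hoxc10 and Hoxa13 went from 1458 and 318 on the uninjected side to 0.526 and 0 in the tumor. Hotair and Hoxa11os, noncoding genes of the HoxC and HoxA clusters that were picked out after their values were seen, were at 33.1 and 41.7 there, and at 0 in the other UIS and control mice. Tbx5, a forelimb factor picked the same way, was at 0 in it and at 19.3 to 84.4 in those 5 libraries. Of other limb factors listed, Tbx4 was at 138 in UIS 512 and at 54.2 to 74.5 in those libraries. Pitx1 was at 2.88 in UIS 512, inside their range of 2.06 to 17.1. What these genes say about the site of the sample was not tested. Hoxa9, Hoxa10, Hoxa11, Hoxa13, Hoxc10, Hoxc11 and Hoxd10 did not pass the filter over the 3 mice, so they were not tested there. Among the remaining members in mice, Hoxd8 was at 2094, 474 and 1556 in UIS and 619.7, 459 and 339 in IS, overlapping (log2 fold change -1.33, limma adjusted p = 0.102). Hoxb2 was higher in all tumors, 22.7, 21.4 and 56.3 against 13.3, 20.6 and 4.32, with limma adjusted p = 0.145. Hoxa2, Hoxa3, Hoxa7, Hoxb4, Hoxb5 and Hoxd4 overlapped between sides with limma adjusted p of 0.158 to 0.860, and Hoxa6, Hoxd1, Hoxd3 and Hoxd13 stayed under the filter.

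**Figure D4:**
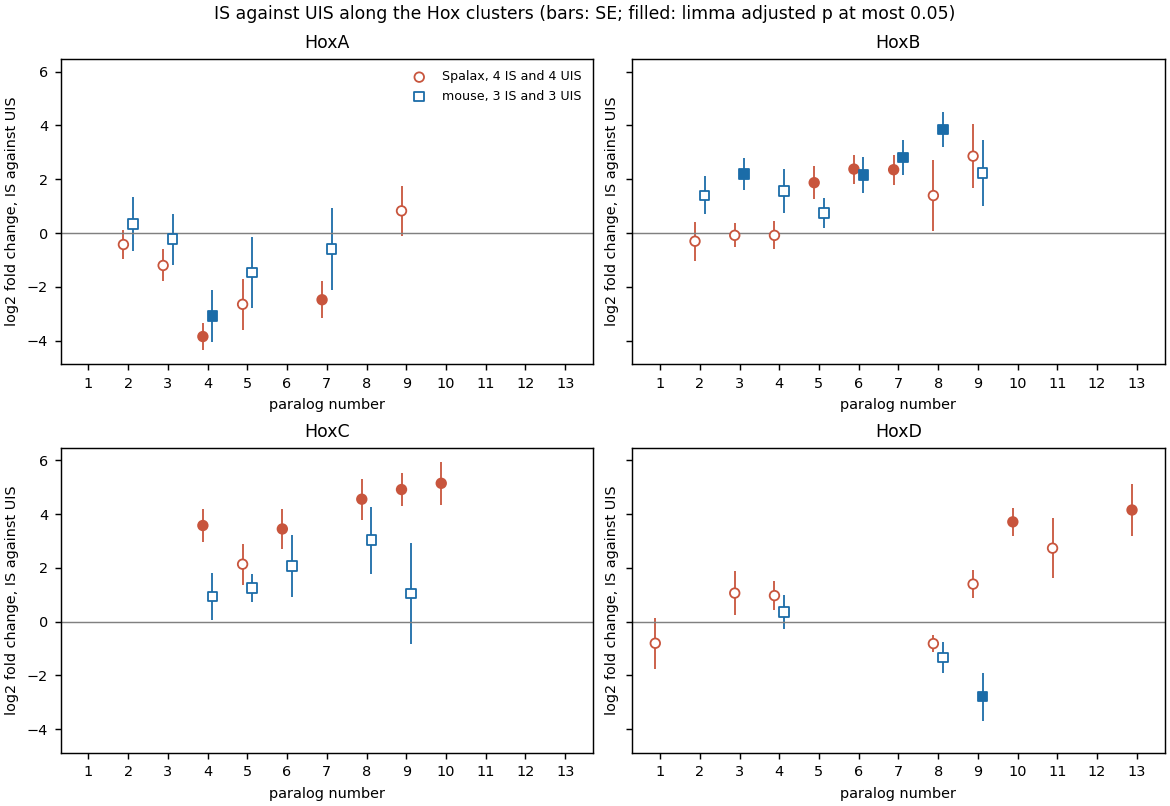
Log2 fold change of IS against UIS (y axis) for the tested members by their number (x axis) in 4 panels, 1 per cluster, with Spalax as circles (4 animals) and mice as squares (3 animals), SE as bars, and filled symbols for limma adjusted p of at most 0.05. In Spalax the HoxA points with numbers 2 to 7 lie below 0, down to -3.85 for Hoxa4 (Hoxa2 turned to 0.31 when scaled by total reads). The HoxC points of Spalax lie above 0, up to 5.14 for Hoxc10. The filled mouse points above 0 are HoxB genes, and Hoxb5, Hoxb6 and Hoxb7 are filled above 0 in Spalax as well.

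Taken animal by animal, the tumor minus uninjected difference in log2(signal + 1) was above 0 in all 7 tumor-bearing animals for Hoxb6, Hoxb7, Hoxc5 and Hoxc8. The share of all genes with 1 sign in all 7 animals was not counted, so these signs only describe single members. For Hoxb7 it was 1.16, 3.03, 1.48, 3.75, 2.39, 3.25 and 2.78 in 600, 976, 2230, 2240, 1019, 1023 and 512. Hoxa4 was below 0 in 6 of 7, at -2.48, -4.22, -3.70, -4.98, -4.76, -4.62 and 0.12 in the same order, with 512 the exception. Hoxc10 was above 0 in the first 6 and far below in 512, at 5.27, 4.39, 4.15, 6.75, 2.50, 0.67 and -9.90, but in mice 1019 and 1023 these differences came from 9 and 1 reads.

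**Figure D5:**
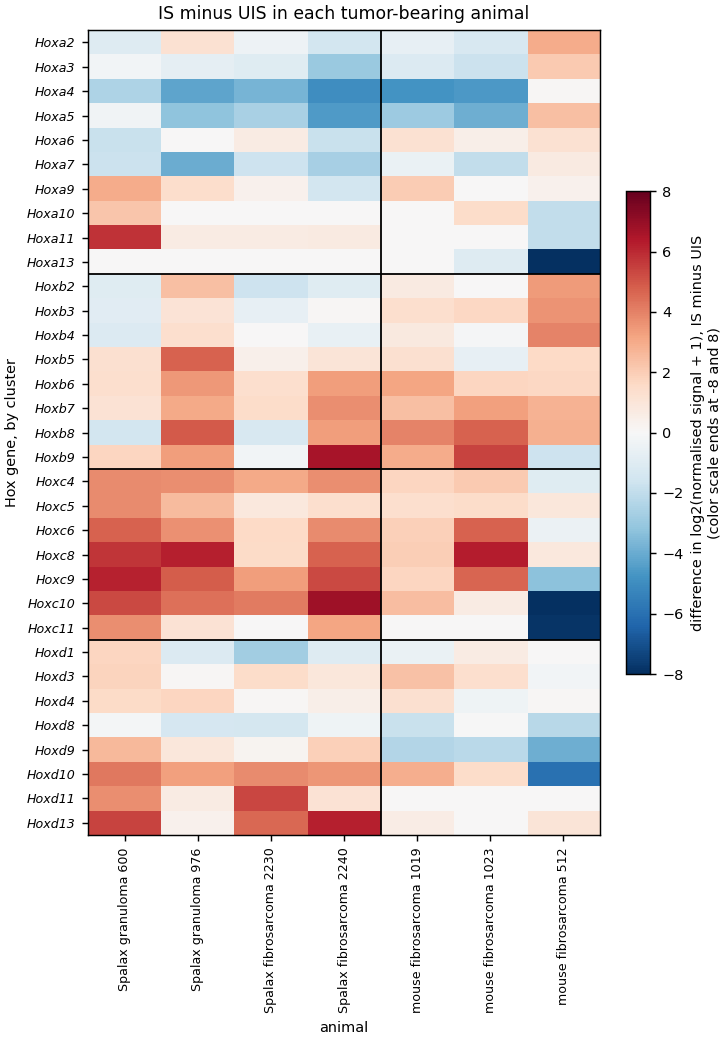
Tumor minus uninjected difference in log2(signal + 1) for 33 members (rows) in each of the 7 tumor-bearing animals (columns), on a color scale that ends at -8 and 8, with a black line between Spalax and mouse. Hoxb6 and Hoxb7 are above 0 in all 7 columns, and the column of mouse 512 departs from the others, with Hoxc10 at -9.90 and Hoxa13 at -8.32.

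Species were compared through their fibrosarcomas, since the tables of the species were normalized separately and levels cannot be set across them. The interaction of side and species was fitted over genes with the same symbol, and 0 of 20 members were called by limma, where 3.95% of 11085 genes were. That share is 438 genes, which became 38 with the animal as a block and 4 to 778 with 1 library left out (4 without UIS 2230 or UIS 2240, 54 and 104 without UIS 1023 and IS 1023, 258 and 778 without IS 512 and UIS 512). Hoxb2, Hoxb3 and Hoxd9 had an unadjusted p under 0.05. The Spalax minus mouse difference of log2 fold changes was 3.83 for Hoxd9 (limma adjusted p = 0.133), and -2.46 and -2.70 for Hoxb3 and Hoxb2 (limma adjusted p = 0.155 and 0.171). DESeq2 called 2 of them, Hoxd9 (adjusted p = 0.00968) and Hoxb3 (0.0352), where it called 15.4% of all genes, and edgeR called 0 of 3 with an unadjusted p under 0.05. Members called in 1 species and not in the other were otherwise not shown to differ between species.

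Whether injected muscle without a tumor differs in Hox signal from untreated muscle was asked with tolerant and control Spalax. Limma called 0 of 21 members tested and 0% of 14020 genes, and 10 members had an unadjusted p under 0.05, beside 5.23% of all genes. The edgeR test gave 9 such members and called 0, and DESeq2 gave 10 and called 5, Hoxa5, Hoxc6, Hoxd4, Hoxd9 and Hoxd10 (DESeq2 adjusted p = 0.0211 to 0.0322), where it called 0.428% of all genes. Controls were all female and 3 of the 4 tolerant animals male, so sex and group cannot be fully told apart here. Values are given in the order stated above. Hoxd9 was at 17.7, 61.1, 51.1 and 29.8 in control and 179, 81.1, 168 and 137 in tolerant animals, and Hoxd10 at 6.63, 18.0, 1.25 and 8.95 in control and 107, 22.5, 79.9 and 41.5 in tolerant animals. Neither overlapped (Hoxd9, log2 fold change 1.88, SE 0.44, limma adjusted p = 0.606, and Hoxd10, log2 fold change 2.85, SE 0.73, limma adjusted p = 0.628). Hoxc6 was at 29.8, 42.2, 4.99 and 35.8 in control and 135, 84.1, 95.3 and 189 in tolerant animals, and Hoxd4 at 61.8, 96.2, 63.6 and 58.7 in control and 123, 169, 232 and 151 in tolerant animals, both higher in each tolerant animal than in any control. On the other side Hoxa5 was at 82.8, 73.7, 232 and 408 in control and 22.5, 18.0, 31.8 and 71.0 in tolerant animals, all tolerant values below all controls (log2 fold change -2.29, SE 0.62, limma adjusted p = 0.705). With Hoxc4, higher in tolerant animals, 6 of the tested members did not overlap, 5 higher and 1 lower, where 3.86% of all genes did not.

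Other members of the same clusters did not pass the limma test in tolerant animals either. Hoxc8 was at 5.52, 19.8, 1.25 and 0.995 in control and 85.9, 27.8, 17.5 and 142 in tolerant animals, overlapping through control 1075 and tolerant 2261 (log2 fold change 3.35, SE 0.90, limma adjusted p = 0.695). Hoxc9 did not pass the filter and was at 0, 0.899, 0 and 0.995 in control and 22.5, 9.01, 9.85 and 24.1 in tolerant animals. Hoxa4 was at 505, 301, 797 and 262 in control and 71.4, 119, 147 and 314 in tolerant animals, overlapping (log2 fold change -1.58, SE 0.48, limma adjusted p = 0.772). Hoxc10 and Hoxd13, present in tumors, held at most 1 read in the tolerant libraries. Without control 6038 the unadjusted limma p of Hoxd9, Hoxd10, Hoxc6 and Hoxa5 was 0.0057, 0.0056, 0.0042 and 0.0127, that of Hoxa7 rose from 0.0318 to 0.0958, and those of Hoxb2, Hoxb3 and Hoxc5 fell to 0.0302, 0.0205 and 0.0165. In tolerant 2251, with the fibroblast sum of 224137, Hoxc8 and Hoxd10 were 27.8 and 22.5, while 2218, with a sum of 28608, held 85.9 and 107. In 2261 and 2375, with sums of 48638 and 8462, Hoxc8 was 17.5 and 142 and Hoxd10 79.9 and 41.5. The part of the fibroblast genes in these values was not tested.

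Whether muscle away from the tumor differs from untreated muscle was asked in both species. In Spalax limma called 0 of 20 members in UIS against control (0% of 13909 genes), with 0 at an unadjusted p under 0.05 and a lowest adjusted p of 0.393. The edgeR test gave 1 member at an unadjusted p under 0.05 and called 0, and DESeq2 gave 0 and called 0. No member was free of overlap, where 12.7% of all genes were. Hoxa4 stood at 505, 301, 797 and 262 in control and 324, 345, 599 and 497 in UIS, and Hoxd10 at 6.63, 18.0, 1.25 and 8.95 in control and 4.82, 3.53, 2.84 and 4.85 in UIS. Without control 6038 the log2 fold change of Hoxd3 was -1.74 (limma adjusted p = 0.248). This comparison shares its controls with that of the tolerant animals. The median of the members was -0.36 in UIS and 0.54 in tolerant animals, beside -0.03 over all genes in each. The tolerant median was 0.05 without control 6038 and -0.19 with no filter, and the UIS median was -0.10 without UIS 976 and -0.63 without UIS 2230.

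In mice limma called 0 of 18 members in UIS against control (0% of 14792 genes), with 4 at an unadjusted p under 0.05. Hoxa3 was at 161, 81.4 and 111 in control and 55.6, 52.6 and 46.1 in UIS (log2 fold change -1.13, SE 0.37, limma adjusted p = 0.441), and Hoxb3 at 20.4, 32.1 and 30.5 in control and 12.1, 12.4 and 8.64 in UIS (log2 fold change -1.24, SE 0.45, limma adjusted p = 0.446). Both were lower in every tumor-bearing mouse, as was Hoxa2, and Hoxa7 was higher, which makes 4 of the 18 tested members without overlap, beside 21.2% of all genes. Hoxb9, Hoxc8 and Hoxd3, under the filter, did not overlap either, with Hoxb9 and Hoxc8 at 0 in all controls and at 4.84, 1.03 and 18.7 and 42.3, 1.03 and 17.3 in UIS. The 1.03 of UIS 1023 was 1 read of each gene, which cannot be told from 0. How many of all genes under the filter did not overlap was not counted. The higher Hoxa7 rested on UIS 512, with a log2 fold change of 1.57 with it and 0.64 without it. Hoxc6, overlapping at 10.6, 2.01 and 10.6 in control and 106, 7.22 and 102 in UIS, was the 1 member called by DESeq2 (adjusted p = 0.0358), which called 2.31% of all genes, and its unadjusted limma p went from 0.0481 to 0.132 without UIS 512. Its value of 106 came from UIS 1019, which held the raised sum of cell cycle genes, and the part of these genes in it was not tested. The edgeR test gave 5 members with an unadjusted p under 0.05 and called 0.

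Hox proteins bind DNA together with cofactors of the Pbx, Meis and Pknox families. In Spalax tumors against UIS 6 of 9 cofactor genes were called, 4 higher and 2 lower, beside 49.4% of all genes, with a median log2 fold change of 0.41. Meis2 was at 55.5, 22.4, 99.5 and 71.5 in UIS and 372, 258, 235 and 403 in IS (log2 fold change 2.48, SE 0.41, limma adjusted p = 0.00245), Meis3 at 316, 347, 339.8 and 303 in UIS and 825, 1114, 832 and 1341 in IS (log2 fold change 1.62, SE 0.24, limma adjusted p = 0.00162), and Pbx3 and Pbx4 rose by 2.10 and 1.91 on the log2 scale. Pknox2 fell from 1834, 1227, 1176 and 1187 to 40.6, 13.3, 5.40 and 168 (log2 fold change -5.55, SE 0.96, limma adjusted p = 0.00292). In mice 3 of 8 were called, beside 45.1% of all genes, 2 higher, among them Pbx3 (1.84), and Pknox2 lower (-3.08).

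Polycomb and trithorax proteins keep Hox genes silent or active. Of 24 such genes, all tested, 14 were called in Spalax tumors, 11 higher and 3 lower, beside 49.4% of all genes, with a median of 0.44. In mouse tumors 11 were called, 8 higher and 3 lower, with a median of 0.47, a share close to the 45.1% of all genes. Ezh2, the methyltransferase of Polycomb complexes in dividing cells, was at 92.9, 91.9, 156 and 161 in UIS and 599.6, 489, 1285 and 459 in IS of Spalax (log2 fold change 2.40, SE 0.36, limma adjusted p = 0.00156), and rose in mice by 2.66 (limma adjusted p = 0.00299). Its counterpart Ezh1 was at 2102, 3346, 1682 and 1754 in UIS and 619.9, 602, 743 and 404 in IS and fell (log2 fold change -1.88, SE 0.27, limma adjusted p = 0.00128). Cbx2 rose (log2 fold change 5.48, SE 0.74, limma adjusted p = 0.00103) and Cbx7, another reader of the Polycomb mark, fell (log2 fold change -2.34, SE 0.28, limma adjusted p = 0.000591), and both were called in the same direction in mice (1.29 and -2.49). Kdm6a, a demethylase that removes the mark, fell in Spalax (-1.30), with a limma adjusted p of 0.284 when scaled by total reads. The proliferation genes Mki67, Top2a and Ccnb1 were called higher in the tumors of both species, and their part in these differences was not tested.

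Other factors that mark position or limb and neck origin were tested beside the Hox genes. Of 32 listed, 23 were tested in Spalax tumors and 12 called, 6 higher and 6 lower, with a median of 0.65, a share close to the 49.4% of all genes. Twist1 and Twist2, factors of embryonic mesenchyme, rose. Twist1 was at 10.9, 7.07, 12.8 and 10.9 in UIS and 165, 152, 188 and 148 in IS (log2 fold change 3.87, SE 0.38, limma adjusted p = 0.000296), and Twist2 at 1.21, 0, 2.84 and 4.85 in UIS and 251, 643, 16.8 and 154 in IS (log2 fold change 5.78, SE 0.79, limma adjusted p = 0.00113). Hand2, of the posterior limb bud, rose by 5.51, and Emx2, of the shoulder blade, by 2.79, with Tbx18 and Msx1 at 2.59 and 2.18. Tbx15, which is active in muscle fibers, was at 7499, 10920.0, 6945 and 5591 in UIS and 694, 725, 503 and 591 in IS and fell (log2 fold change -3.59, SE 0.21, limma adjusted p = 4.6e-05). Lbx1, Pitx1 and Tbx1, also muscle or head and neck factors, fell as well, with log2 fold changes of -6.15, -3.50 and -3.42. In mice 7 of 19 were called, a smaller share than the 45.1% of all genes, Prrx1, Prrx2 and Tbx18 higher and Lbx1, Pax3, Tbx1 and Tbx15 lower. None of the cofactor, chromatin or positional genes was called by limma in tolerant or UIS against control in Spalax, or in UIS against control in mice.

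The mouse table names 17 of 18 noncoding genes listed from the Hox clusters, and the Spalax table names 0 of them. Of these 6 passed the filter in the mouse tumors, and 0 were called against UIS, with a median log2 fold change of -0.07. Hotairm1, of the HoxA cluster, was at 37.5, 70.1 and 7.20 in UIS and 14.5, 13.6 and 108 in IS, and Halr1, of the same cluster, at 32.6, 46.4 and 2.88 in UIS and 4.65, 6.52 and 10.5 in IS. Both were higher in tumor 512 than in its uninjected side and lower in the other tumors. Hoxd3os1 overlapped at 55.6, 26.8 and 63.3 in UIS and 41.9, 31.4 and 48.4 in IS.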

How the data were processed

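RNA was sequenced from muscle or tumor tissue of the neck with a stranded library kit, single reads of 101 bases, and per the labels reads were aligned with TopHat 1.4.1, counted with HTSeq and normalized with DESeq, mouse reads on GRCm38 and Spalax reads on the published Spalax genome. The methods of the study name TopHat2. The strand setting of the counting is not given in the sources used here. The deposited values were tested and found to be a signal, read counts divided by 1 size factor per library, and 100% of them were whole multiples of the value of 1 read within 0.01 read. A comma stands inside 2387 gene names of the Spalax table, so the 16 values were read from the line end.

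The members and lists were chosen with earlier results of these data known. The main test was limma 3.58.1 (R 4.3.3, moderated with a trend) on log2(signal + 1), over genes whose signal reached 10 in a number of libraries equal to the size of the smaller group, with Benjamini-Hochberg adjustment over all genes tested and a call at an adjusted p of at most 0.05. All Spalax tumors were fitted with 4 group means, and differences between differences as interactions, 9 comparisons in all. Fold changes are on the log2(signal + 1) scale, which understates changes of low genes. Members were named apart from what is not reported here, and values by library were given where a group mean reached 10. Of the lists, called genes and the 3 with the highest mean were named. The alternatives were scaling by total reads, a pseudocount of 0.1, no filter, edgeR 4.0.16 and DESeq2 1.42.0 on the recovered reads, 1 model over all libraries, the animal as a block and leaving out each library, and, chosen after seeing the data, leaving out animal 512. Fits were tested on simulated data. The 25 pairs of replicate libraries differed by more than sampling noise (lowest chi-square per degree of freedom 45.0).

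IS and UIS libraries with the same number come from the same animal per the labels, although the run name of UIS 976 carries another number. The mean correlation of their deviations from the group means was 0.009 in granuloma, -0.002 in Spalax fibrosarcoma and 0.117 in mice. Python 3.11.15, pandas 2.3.3, numpy 2.4.6 and matplotlib 3.10.9 were used. Homeobox sequences and positions were read from GRCm38 with GENCODE vM21.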

Additional observations from a re-analysis of the deposited data

Results flagged for a closer look

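In 4 animals of a group, a library was marked where its gap to the nearest other exceeded the 95% critical value of Dixon's test. This gave 7 marks in 50 tests of a member in a group, and chance marks about 1 in 20 of independent tests. Members measured in 1 library are not independent, so the 7 marks cannot be set against that rate. Where the other values of a group are all 0, any value above 0 is marked. Spalax control 6038 stood apart in 5 members, with Hoxa9 at 499 (3.60 to 12.5 in the other controls), Hoxa10 at 238, Hoxa11 at 50.7 and Hoxa13 at 20.9 (each 0 in the others), and Hoxd3 at 1.99 (52.4 to 54.1 in the others). Control 1075 held Hoxd4 at 96.2, against 58.7 to 63.6. Tolerant 2251 held Hoxb3 at 61.6, against 17.4 to 19.8.

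For Hoxb2 and Hoxd9 the tumor minus uninjected difference had 1 sign in both Spalax with fibrosarcoma and the other sign in all 3 mice. The Spalax minus mouse difference of log2 fold changes was -2.70 for Hoxb2 (limma adjusted p = 0.171) and 3.83 for Hoxd9 (limma adjusted p = 0.133), and neither passed the adjusted threshold.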

How the results depend on the processing

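The number of members called in all Spalax tumors stayed within 1.5 times of 12, between 10 and 18 over the alternatives and between 10 and 15 with 1 library left out. Hoxa4, Hoxb6, Hoxb7, Hoxc4, Hoxc6, Hoxc8, Hoxc9, Hoxc10, Hoxd10 and Hoxd13 were called in all 15 alternatives there, and Hoxb7 and Hoxb8 in all 14 of the mouse tumors. In granuloma the 7 calls became 4 with no filter and 11 in 1 model over all libraries, and 0 to 2 with 1 library left out (2 without UIS 600). In Spalax fibrosarcoma the 6 calls became 11 with scaling by total reads and 10 in 1 model, and 0 to 11 with 1 library left out (0 without either UIS library, 11 and 10 without IS 2230 and IS 2240). In mouse tumors the 6 calls became 10 with scaling by total reads, 3 to 6 with 1 library left out (3 without UIS 1019, IS 1019 or IS 1023), and 6 with animal 512 left out. For tolerant against control DESeq2 called 5, and for mouse UIS against control 1. For the species interaction DESeq2 called 2, and no filter and 1 model called 1 each, against 0.

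With the animal as a block, 13 members were called in all Spalax tumors, 7 in granuloma, 8 in Spalax fibrosarcoma and 5 in mouse tumors, and 0 in either interaction. In Spalax fibrosarcoma the lower calls went from 1 to 2, with Hoxa5 (limma adjusted p = 0.0263) and, among the higher, Hoxc6 (0.0471) gained, and in mice the lower calls went from 2 to 1. No member called by limma changed direction under the alternatives run for it. Among members not called, scaling by total reads turned the sign of Hoxa2, Hoxb2, Hoxb3 and Hoxb4 in all Spalax tumors, of Hoxa9, Hoxb3 and Hoxb4 in Spalax fibrosarcoma, of Hoxa3 in granuloma and of Hoxa3 and Hoxa7 in mice. Of the values followed under alternatives, 463 stayed on their side of the threshold, 79 lost a call and 5 gained one. Members not called were not all followed in this way, and the counts above hold further gained calls. Depth limits the posterior members most, since at 1 to 3 reads a library cannot show whether a gene is off. Groups of 2 to 4 animals limit the rest.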
